A study of Arabidopsis thaliana with 50 samples.

Results

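The response of *med12* seedlings to 15 min of light was measured in 6 of the 50 RNA-seq libraries of the study, 3 labelled *med12* dark and 3 labelled *med12* light. The 6 Col-0 libraries of the same experiment served as the wild-type reference, 3 from the dark and 3 after light. Col-0 is the standard laboratory strain of *Arabidopsis thaliana*, and *med12* is the T-DNA insertion allele *cct-2* in that strain. Whole seedlings were grown in long days for 7 days, kept in the dark for 24 h and then either harvested in the dark or exposed to light for 15 min, at an age of 8 days. Both genotypes went through the same treatment and carried no other transgene or mutation named in the labels. RNA of 5 pooled seedlings went into each extraction, and the mutant is represented by a single insertion allele. The other libraries of the study come from Col-0, *med12*, *med13*, *morc1*, *ddc* and combined lines, of which only 8 long-day libraries of Col-0 and *med12* were used here, for comparison of levels and spread.

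MED12 is a subunit of the CDK8 kinase module, a detachable part of the Mediator complex that links transcription factors to RNA polymerase II. In a dark-kept seedling, phytochrome-interacting factors (PIFs) hold growth genes on, and the COP1/SPA complex degrades factors such as HY5 that promote greening. Light activates phytochromes and cryptochromes, which remove the PIFs, inhibit COP1/SPA, and within minutes change the transcription of regulators of greening, the clock, shade avoidance and auxin-driven growth.

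The 12 libraries held between 5953648 and 6786822 counts each, so 3 counts corresponded to between 0.442 and 0.504 CPM (counts scaled to library size with the TMM method), and genes below that level were not resolved. *MED12* itself (AT4G00450, chromosome 4 of TAIR10.1, 200874 to 211309) was at 63.0, 71.1 and 66.6 CPM in *med12* in the dark and 66.3, 67.5 and 69.3 CPM after light, against 186 to 207 CPM in the 6 Col-0 libraries. All *med12* libraries were thus below all Col-0 libraries, and the remaining reads of the disrupted gene were not mapped relative to the insertion. Summed markers of green tissue were between 657 and 721 CPM and summed root markers between 503 and 567 CPM in the 12 libraries, and no member of either list was called in either genotype. These sums do not show equal tissue composition, because the removal of duplicate reads before counting caps abundant genes. *PYK10*, a root beta-glucosidase gene, had 1569 to 1641 counts in all 12 libraries. Calls thinned out with abundance, from 5.57% of the features with a mean of 20 to 50 counts to 0.15% of those with 500 to 1000 in *med12*, and from 9.09% to 0.24% in Col-0. Replicates of these 4 groups differed by no more than counting noise for nearly all genes. The chi-square per degree of freedom between pairs of libraries was 0.88 to 1.11 for genes with summed counts of 20 to 50, whereas it was 1.26 to 1.43 in long-day Col-0 and 1.72 to 2.29 in long-day *med12*. Over all features with at least 20 summed counts it was 0.585 to 0.793 in these 4 groups, which is less than counting noise. Standard errors (SE) and adjusted p-values from edgeR can therefore be smaller than counting error alone would give. The study treats each pool of 5 seedlings as an independent biological sample, and all pools were grown and harvested together, so p-values measure only the spread between such pools. In whole seedlings, fewer cells of one type and less RNA per cell cannot be told apart.

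After 15 min of light, 166 of 21202 features tested were higher in *med12* (0.783%) and 209 were lower (0.986%), where a call needed a change above 1.5-fold with an edgeR adjusted p below 0.05. In Col-0, 412 were higher (1.94%) and 198 lower (0.934%). The rises were therefore fewer in the mutant, whereas the number of falls was similar. The 3 light libraries did not overlap the 3 dark libraries for 365 of the 375 features called in *med12*, and 1 of the 375 was a transposable element. The median log2 fold change over all features was 0 in both genotypes.

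Of the features called in *med12*, 95 rose in both genotypes, 57.2% of the *med12* rises and 23.1% of the Col-0 rises. The shared falls numbered 79, which were 37.8% of the falls in *med12* and 39.9% of those in Col-0. Genes called in Col-0 mostly kept their direction in the mutant, 368 of 412 rises (89.3%) and 185 of 198 falls (93.4%), against 51.3% of all features with a positive value in *med12*. The median log2 fold change of the Col-0 rises was 0.87 in Col-0, on which they were chosen, and 0.41 in *med12*. For the Col-0 falls it was -0.84 in Col-0 and -0.54 in *med12*. The reverse choice gave the reverse order, as the genes called up in *med12* had a median of 1.03 there and 0.79 in Col-0. The difference between the 2 light responses was tested for each feature as an interaction, which passed for 221 of all features tested (1.04%). Among the Col-0 rises it passed for 62 genes with a smaller and 8 with a larger rise in *med12*, and among the Col-0 falls for 26 with a smaller and 1 with a larger fall.

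**Figure D1:**
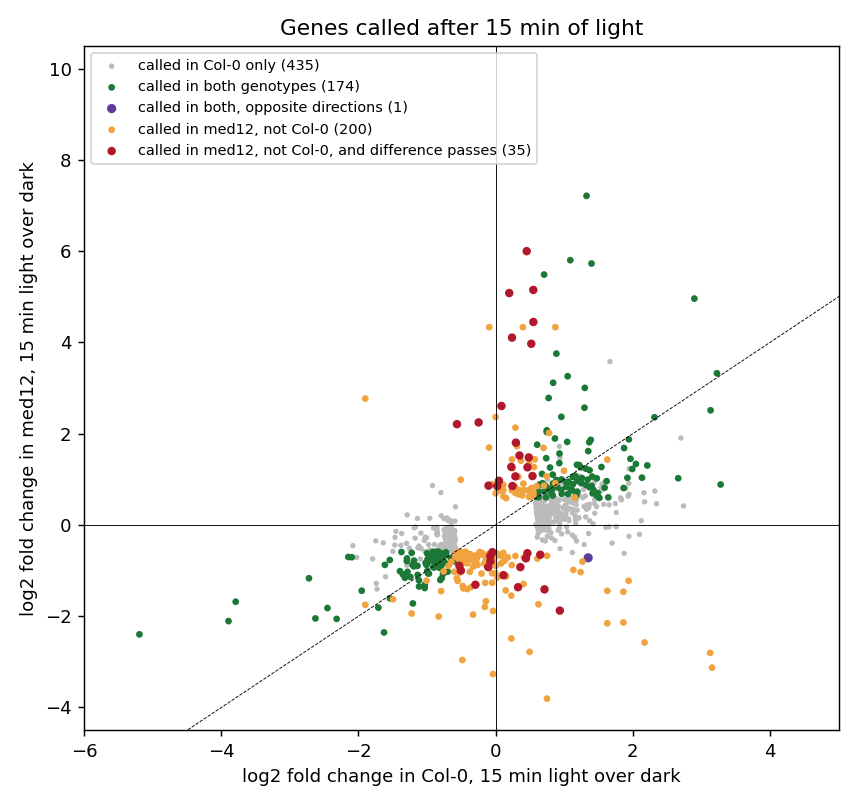
Each point is a feature called after 15 min of light in at least 1 genotype, with its log2 fold change in Col-0 on the horizontal axis and in *med12* on the vertical axis, coloured by where it was called, and the dashed line marks equal responses. The 174 features called in both genotypes lie mostly along the line, and the 35 called in *med12* and not in Col-0 whose difference passed lie off it, between -0.56 and 0.94 on the Col-0 axis.

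Regulators of greening responded less in *med12* for 7 of the 14 factors tested. None of these light signalling factors was called in *med12*, whereas 6 rose and 1 fell in Col-0. Their median log2 fold change was 0.17 in *med12* and 0.51 in Col-0. In *med12*, 11 of the 14 had an unadjusted p under 0.05 and 7 an adjusted p under 0.05 in edgeR, and DESeq2 called none, with 9 and 3 past the same thresholds.

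*CGA1*, a GATA factor induced by light and cytokinin that promotes chloroplast development (AT4G26150, chromosome 4, 13253084 to 13255106), was at 28.2, 32.4 and 29.6 CPM in dark *med12* and 40.2, 39.5 and 42.5 CPM after light. In Col-0 it went from 25.3, 25.2 and 25.5 CPM to 80.4, 76.3 and 83.2 CPM. Light and dark libraries did not overlap in either genotype, and the *med12* light libraries stayed far below those of Col-0. The log2 fold change was 0.44 (SE 0.06) in *med12* and 1.65 (SE 0.05) in Col-0, and the difference of -1.21 (SE 0.08) passed in edgeR with an adjusted p of 2.3e-15. In long days the 4 *med12* libraries held 8.78 to 13.3 CPM of *CGA1* and the 4 Col-0 libraries 27.4 to 40.8 CPM.

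*HY5*, the bZIP factor that promotes light development (AT5G11260, chromosome 5, 3593335 to 3595073), was at 13.9, 13.9 and 14.3 CPM in dark *med12* and 16.8, 19.4 and 17.4 CPM after light. The Col-0 libraries went from 15.1, 15.5 and 17.0 CPM to 31.6, 32.5 and 33.6 CPM. The dark levels were thus close in the 2 genotypes and the light levels were separated. The log2 fold change of *HY5* was 0.35 (SE 0.09) in *med12*, below the 1.5-fold threshold, and 1.04 (SE 0.08) in Col-0, with a difference of -0.69 (SE 0.12, edgeR adjusted p = 0.0026), which DESeq2 did not call (adjusted p = 0.14). Its close homologue *HYH* had log2 fold changes of 0.35 in *med12* and 1.02 in Col-0, and here the difference of -0.67 missed the threshold (SE 0.16, edgeR adjusted p = 0.058). *GNC*, the nearest relative of *CGA1*, the B-box factor genes *BBX22* and *BBX25*, and *GLK2*, a regulator of photosynthesis genes, all had larger values in Col-0, at log2 0.56, 0.63, 0.98 and 0.46, than in *med12*, at 0.15, 0.19, 0.37 and 0.17, and the interaction passed for each. For *HFR1*, a bHLH factor that restrains PIFs, the values were -0.55 in *med12* and -0.75 in Col-0, and *GLK1* was at 0.11 and 0.02.

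**Figure D2:**
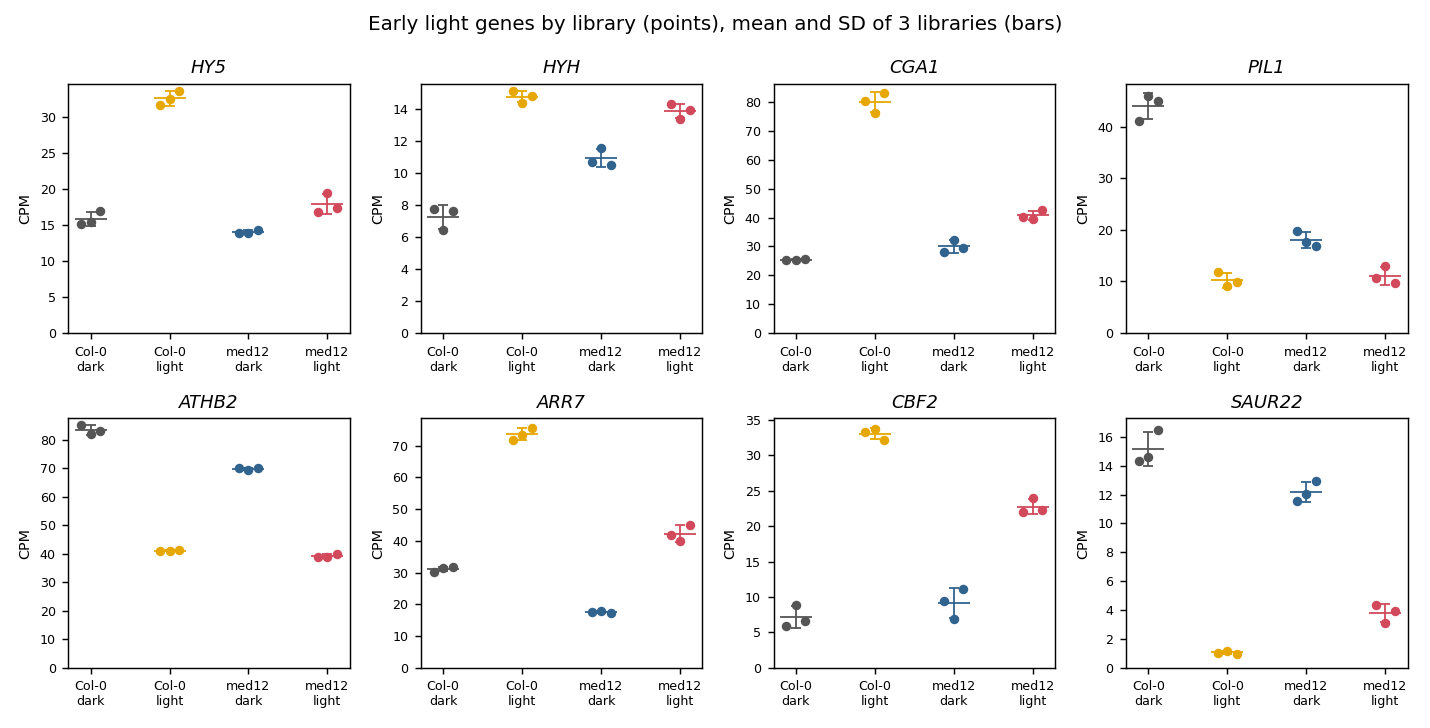
CPM of 8 early light genes in each of the 12 libraries (points), with the mean and SD of the 3 libraries of each group (bars), on linear axes that start at 0. *HY5* and *CGA1* rose more in Col-0 than in *med12*, *HYH* was drawn apart in the same way without passing the test of the difference, *ATHB2* and *ARR7* moved by similar folds in both, and the Col-0 drops of *PIL1* and *SAUR22* were deeper than those of *med12*.

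Cytokinin response genes rose in both genotypes. Among 14 tested members, 6 rose in *med12* and 9 in Col-0, against 0.783% and 1.94% of all features. The medians were 0.38 and 0.68, and the difference passed for *ARR16* and *CRF5* only. *ARR7*, a type-A response regulator that dampens cytokinin signalling, went from 17.5, 18 and 17.3 CPM to 41.9, 40.0 and 45.1 CPM in *med12*. In Col-0 it went from 30.3, 31.4 and 31.7 CPM to 71.9, 73.4 and 75.7 CPM. The level was lower in *med12* in both conditions while the log2 fold change was 1.26 (SE 0.06) in *med12* and 1.24 (SE 0.05) in Col-0, a difference of 0.02 with an SE of 0.08.

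The related regulators *ARR15* and *ARR6* had log2 fold changes of 1.69 and 1.04 in *med12*, and of 1.87 and 1.17 in Col-0. *ARR15* was at 3.56, 3.08 and 3.21 CPM in dark *med12* and 11.3, 10.6 and 9.96 CPM after light, all 3 light libraries being above all 3 dark ones. Among the cytokinin response factors, AP2/ERF proteins downstream of the hormone, *CRF2* rose by 0.91 on the log2 scale in *med12* and by 1.25 in Col-0, and *CRF5* by 0.69 and 1.41, with a difference of -0.72 (SE 0.09, edgeR adjusted p = 4.4e-06). *CRF1* rose by 0.89 in *med12*, but its edgeR adjusted p of 0.044 went up to 0.27 when the *med12* light library 3 was left out, and 5 of the 12 fits without 1 library lost the call. *ARR16* was at -0.04 in *med12* against 0.66 in Col-0.

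Among the 7 tested DREB-type factors, which bind the CRT/DRE element and act in cold and drought responses, *CBF2* and *CBF3* rose in both genotypes and *DREB2A* and *DREB2B* in Col-0. *CBF2* went from 9.48, 6.94 and 11.1 CPM to 21.9, 23.9 and 22.3 CPM in *med12*, and from 5.91, 8.88 and 6.66 CPM to 33.3, 33.7 and 32.2 CPM in Col-0. The *med12* rise was smaller, with log2 fold changes of 1.3 and 2.21 and a difference of -0.91 (SE 0.17, edgeR adjusted p = 0.0011). In long days the libraries were separated, with 17.3 to 41.4 CPM of *CBF2* in 4 *med12* libraries and 0.163 to 1.06 CPM in 4 of Col-0. *CBF3* rose by 2.51 on the log2 scale (SE 0.32) in *med12*, from 0.593, 0.925 and 0.437 CPM to 4.16, 3.58 and 3.64 CPM, and by 3.13 (SE 0.19) in Col-0, and the interaction gave -0.62 (SE 0.49), which did not pass. With the spread shared with the long-day libraries the edgeR adjusted p of *CBF3* in *med12* was 0.078. *TINY2*, of the same family but outside the list and named after its values were seen, rose by 0.89 in *med12* and by 3.28 in Col-0, a difference of -2.39.

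Some rapid stress genes rose in both genotypes, 4 of 24 tested in *med12* and 5 in Col-0, against 0.783% and 1.94% of all features. *WRKY46* rose by 1.86 on the log2 scale in *med12* (1.39 in Col-0), *CAF1a*, an mRNA deadenylase gene, by 1.32 (1.19), *ERF105* by 1.1 (0.83) and the zinc finger gene *ZAT10* by 0.77, while *ZAT10* was at 0.49 in Col-0. *ZAT10* was not called in Col-0. None of these 4 differed between genotypes by the interaction test, whose differences lay between 0.13 and 0.48. Over the 24 genes the interaction passed for *WRKY40* only, which was called in neither genotype. Of the clock genes, *PRR9*, a light-induced repressor of the morning loop, and *CDF1*, a Dof repressor of *CONSTANS*, were the only called members in *med12* of 13 morning and 13 evening genes. *PRR9* went from 18.1, 18 and 17.8 CPM to 26.6, 29.7 and 28.3 CPM in *med12*, against 18.7 to 21.2 CPM and 44.8 to 45.7 CPM in Col-0. Light and dark libraries were fully separated in both. The log2 rise was 0.65 (SE 0.07) against 1.17 (SE 0.06) in Col-0, and the difference of -0.52 lost its call in 2 of the 12 fits without 1 library, with the highest edgeR adjusted p at 0.074 without the Col-0 dark library 3. *CCA1* was at 0.07 in *med12* and 0.36 in Col-0, with a difference of -0.28 (edgeR adjusted p = 9.4e-04), and in Col-0 *ELF4*, *CDF3* and *COL2* also rose. *CDF1* rose by 0.86 in *med12* and by 1.4 in Col-0, with a difference of -0.54 that 2 of the 12 fits without 1 library lost, at up to an edgeR adjusted p of 0.098 without the Col-0 dark library 3. Of 19 jasmonate genes only *JAZ5*, a repressor of jasmonate signalling, was called in *med12*, at 1.34, and it lost its call without the *med12* dark library 1 (edgeR adjusted p = 0.13) or the *med12* light library 2 (0.075).

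Some shade and growth genes fell in both genotypes, by less in *med12* where the difference passed. Of 17 tested PIF and shade genes, 4 fell in *med12* and 7 in Col-0, against 0.986% and 0.934% of all features. In *med12*, 10 of the 17 had negative values with an adjusted p under 0.05. The median over the 17 was -0.30 in *med12* and -0.29 in Col-0, and the interaction passed for *PIL1* only. *ATHB2*, a homeodomain gene induced by shade, was at 69.9, 69.4 and 70.0 CPM in dark *med12* and 38.9, 38.7 and 39.9 CPM after light, a log2 fold change of -0.83 (SE 0.04) against -1.02 (SE 0.04) in Col-0. The 2 falls did not differ by the interaction test (0.19, SE 0.06, edgeR adjusted p = 0.51). *PIL1*, a bHLH gene that PIFs induce, went from 19.9, 17.6 and 16.9 CPM to 10.6, 12.9 and 9.65 CPM in *med12*, and from 41.2, 45.9 and 44.9 CPM to 11.8, 9.05 and 9.85 CPM in Col-0. The light levels overlapped between the genotypes, and the dark level in *med12* was below that in Col-0. Its log2 fold changes were -0.71 and -2.10, with a difference of 1.39 (SE 0.15, edgeR adjusted p = 1.6e-08). *ATHB4* and *YUC9*, an auxin synthesis gene, fell by 0.78 and 0.79 on the log2 scale in *med12*.

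Of 60 tested SAUR genes, small auxin-induced genes of which several promote cell expansion, 3 rose and 10 fell in *med12*, against 5 and 17 in Col-0, and the interaction passed for 8. Over all features, 0.783% rose and 0.986% fell in *med12*, and 1.94% and 0.934% in Col-0. The median over the 60 was -0.08 in both genotypes. *SAUR22* went from 11.6, 12 and 13.0 CPM to 4.32, 3.11 and 3.95 CPM in *med12*, and from 14.3, 14.6 and 16.5 CPM to 1.05, 1.19 and 0.985 CPM in Col-0. All 3 *med12* light libraries were above all 3 Col-0 light libraries. The log2 fold changes were -1.68 (SE 0.16) and -3.79 (SE 0.20). *SAUR19*, *SAUR23* and AT5G18030 lie in the same cluster on chromosome 5 and are near-identical copies. Reads that match several of these copies may be missing from their counts. The log2 falls were 2.11, 1.17 and 0.70 in *med12* against 3.90, 2.72 and 2.15 in Col-0. The fall of AT5G18030 in *med12* lost its call in 3 of the 12 fits without 1 library, reaching an edgeR adjusted p of 0.14 and a log2 fold change of -0.56 without the *med12* light library 2. *IAA29*, an auxin response repressor gene that PIFs induce, was the only called member of 19 auxin response genes, at -0.61 in *med12* and -1.22 in Col-0. *RUP1*, a repressor of the UV-B photoreceptor pathway, was at -0.73 in *med12*, where it was called, and at -0.54 in Col-0, with an interaction of -0.20 that did not pass.

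The genes called in both genotypes with the smallest p-values in *med12* included several falls of similar size in Col-0. AT3G07350 is annotated as a putative sulfate/thiosulfate import ATP-binding protein (DUF506). It went from 48.8, 49.9 and 48.1 CPM to 14.5, 14 and 13.3 CPM in *med12*, a log2 fold change of -1.81 (SE 0.06) against -1.71 (SE 0.05) in Col-0. *OXS3*, which acts in oxidative stress tolerance, fell by 1.61 in *med12* and 1.54 in Col-0. *RMA1*, a membrane-anchored ubiquitin ligase gene, fell by 0.88 and 1.01, and *TEM1*, a repressor of flowering, by 0.75 and 0.99. For these 4 genes the difference between genotypes did not pass. AT3G59940, of the galactose oxidase/kelch repeat superfamily, fell by 1.08 in *med12* and 0.77 in Col-0, and here the difference of -0.31 was called (edgeR adjusted p = 0.0083) but was lost without the *med12* light library 1 (adjusted p = 0.087), in DESeq2 (0.25) and with the long-day spread (0.25). AT3G09275, a non-coding RNA at -2.36 in *med12*, lies antisense to AT3G59940 and within its bounds. The libraries were stranded and the reads were counted by strand, so the 2 genes were counted apart.

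Some further lists held no gene called in either genotype at this time. This held for all tested members of the lists for chlorophyll synthesis (19 genes), light harvesting (18), photoreceptors (13), flavonoid synthesis (6), photoprotection (4), dark starvation (16) and the CDK8 module (5). Below the fold threshold, 5 dark starvation and 2 photoreceptor genes were lower in *med12* at an edgeR adjusted p under 0.05. The same was true of 1 chlorophyll synthesis and 1 CDK8 module gene, and the interaction passed for the photoreceptor gene *PHOT1*. The light harvesting genes had log2 fold changes between -0.05 and 0.11 in *med12*, but 17 of the 18 had means above 500 counts, as did 12 of the 19 chlorophyll synthesis genes. At that level duplicate removal compresses differences, and a change in these genes may not have been detectable. The abscisic acid PP2C genes *PP2CA*, *HAI1* and *HAI2* and the heat shock genes *HSFA2* and *HSP70-4* rose in Col-0 and were not called in *med12*, and of these 5 the interaction passed for *PP2CA* and *HSP70-4*, at differences of -0.40 and -0.47.

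**Figure D3:**
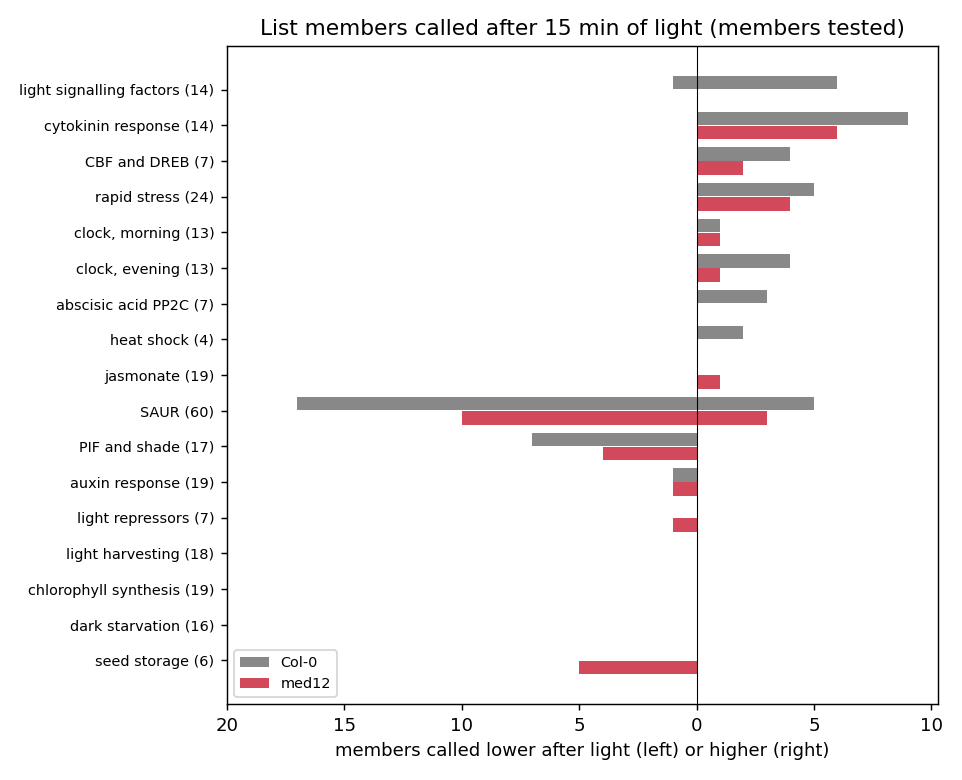
Bars give the number of list members called lower (left of 0) or higher (right of 0) after 15 min of light in Col-0 (grey) and *med12* (red), with the number of members tested in parentheses. Light signalling factors had no bar in *med12* against 6 rises and 1 fall in Col-0, cytokinin response genes rose in both genotypes (6 and 9), SAUR genes fell in both (10 and 17), and seed storage genes had 5 falls in *med12* and no call in Col-0.

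In *med12*, 71 genes rose and 129 fell without being called in Col-0. Most did not differ between genotypes by the interaction test, which passed for 20 of the 71 and 15 of the 129. In Col-0, 61 of the 71 and 85 of the 129 had the same sign. Whatever their sign, 17 of the 71 and 24 of the 129 had an adjusted p under 0.05 in Col-0, below the fold threshold. The list of genes that pass both tests is therefore short, and only 3 of the 35, AT3G28510, *ECS1* and AT2G20670, also passed when the spread was shared with the 8 long-day libraries. DESeq2 called 13 of the 35.

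Defence genes were among the *med12* rises. In a set of 23 tested genes of salicylic acid defence, chosen after the values were seen, 9 rose in *med12* and 5 in Col-0, none fell, and the interaction passed for 6. Over all features, 0.783% rose in *med12* and 1.94% in Col-0. Of features with a mean of 20 to 50 counts, 5.57% and 9.09% were called in either direction. The median log2 fold change of the set was 0.40 in *med12* and 0.34 in Col-0. *PR1*, the marker of salicylic acid defence (AT2G14610, chromosome 2, 6241640 to 6242541), had 1 count in each of the 3 dark *med12* libraries and 148, 150 and 172 counts after light, or 24.6, 23.3 and 27.2 CPM. In Col-0 it went from 8.08, 8.06 and 5.55 CPM to 18.4, 17.4 and 18.7 CPM. The *med12* libraries were thus below those of Col-0 in the dark and above them after light. The ratio of light to dark in *med12* was 168, with a 95% counting interval from 57.1 to 816, and the difference between genotypes passed in edgeR with an adjusted p of 2.3e-15. *PR1* was listed at 0 in most long-day libraries, and the highest of those values was 0.335 CPM in Col-0 and 0.338 CPM in *med12*.

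*LURP1*, a gene required for resistance to downy mildew, had 7, 6 and 7 counts in dark *med12* and 57, 60 and 65 after light, from 1.04, 0.925 and 1.02 CPM to 9.48, 9.33 and 10.3 CPM. In Col-0 it went from 9.17, 10.7 and 10.9 CPM to 21.6, 20.9 and 21.3 CPM. The light level in *med12* reached the dark level of Col-0. The log2 fold changes were 3.26 (SE 0.21) and 1.05 (SE 0.10), with a difference of 2.21 (SE 0.26, edgeR adjusted p = 2.2e-07).

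Other defence genes had the same arrangement of a low dark level and a steeper rise. *WAK1*, a wall-associated kinase gene, went from 3.41, 3.70 and 3.06 CPM to 12.3, 14.8 and 14.7 CPM in *med12*, against 22.2 to 23.6 CPM and 37.6 to 39.6 CPM in Col-0. *AIG1*, induced by bacterial avirulence signals, rose by 1.80 on the log2 scale in *med12* and was at 0.30 in Col-0, and *PAD3*, the last enzyme of camalexin synthesis, rose by 1.26 and was at 0.46. The interaction passed for *WAK1*, *AIG1* and *PAD3*, at differences of 1.29, 1.51 and 0.80. Not every member followed, since *BGL2*, the *PR2* glucanase gene, rose by 1.34 in *med12* and by 2.05 in Col-0. The upstream regulators *NPR1*, *EDS1*, *PAD4* and *WRKY70* had log2 values between -0.19 and 0.10 in *med12* and were not called. *EDS16*, *EDS5*, *SARD1* and *CBP60G* were not called either, at 0.08, 0.02, 0.08 and -0.23. *PBS3* and *ALD1* of the same set were called in *med12*, at 1.44 and 0.90. In Col-0 they were at 0.24 and 0.40 and not called, and the interaction did not pass for either.

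AT3G28510, a P-loop ATPase gene, had 1, 0 and 1 counts in dark *med12* and 30, 27 and 22 after light, a ratio of 42.3 with a 95% counting interval from 11.3 to 355. In Col-0 it was already at 8.55, 8.39 and 9.52 CPM in the dark and at 10, 14.5 and 14.3 CPM after light. *ECS1*, a cell wall protein gene linked to resistance against *Xanthomonas*, went from 6.08, 8.63 and 6.70 CPM to 16.0, 16.2 and 19.5 CPM in *med12*, and from 25.5 to 28.1 CPM to 29.8 to 33.0 CPM in Col-0. For both genes, every *med12* library stayed below every Col-0 library of the same condition. The difference of log2 fold changes of *ECS1* was 1.04 (edgeR adjusted p = 3.4e-06). *TAT3*, a jasmonate-induced tyrosine aminotransferase gene, went from 1, 1 and 2 counts to 21, 17 and 17 in *med12* and rose by 0.89 on the log2 scale in Col-0, but with the long-day spread its adjusted p in *med12* was 0.15. *FAMT*, a farnesoic acid methyltransferase gene, had 0 counts in all dark *med12* libraries and was at least 2.74-fold higher after light, computed against 3 counts per library.

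*FTM1*, a stearoyl-ACP desaturase family gene, was different in that the genotypes had similar dark levels. It went from 6.52, 5.55 and 5.54 CPM to 26.9, 27.5 and 27.2 CPM in *med12* and from 3.42, 5.43 and 5.55 CPM to 4.49, 2.08 and 3.12 CPM in Col-0. After light all *med12* libraries were far above all others. The log2 fold changes were 2.21 (SE 0.12) and -0.56 (SE 0.22), with a difference of 2.77 (SE 0.26, edgeR adjusted p = 1.1e-09), which was lost with the long-day spread (adjusted p = 0.45). In long days *FTM1* ranged from 7.27 to 52.8 CPM among 4 Col-0 libraries and from 4.65 to 7.08 CPM among 4 of *med12*.

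**Figure D4:**
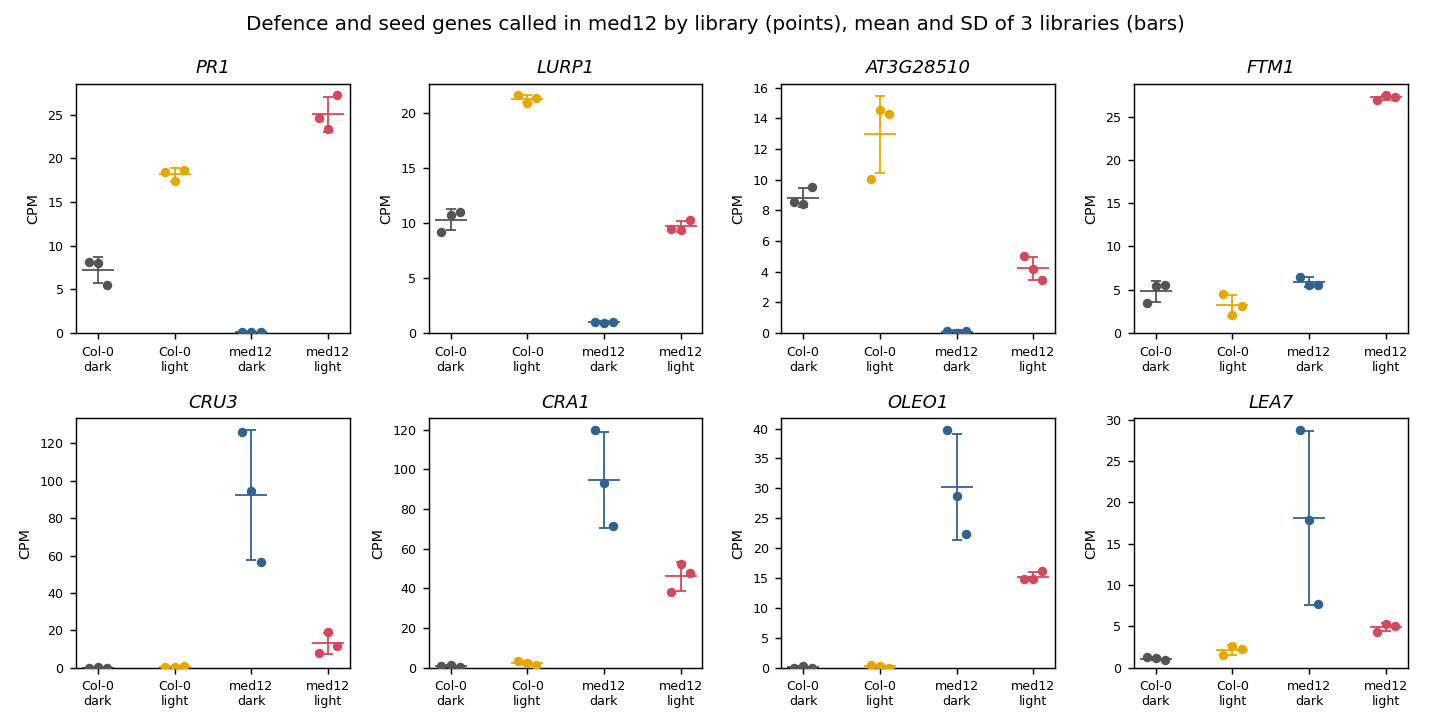
CPM of 4 genes that rose (top) and 4 seed genes that fell (bottom) in *med12*, in each of the 12 libraries (points) with the mean and SD of 3 (bars), on linear axes that start at 0. *PR1* went from near 0 to between 23.3 and 27.2 CPM in *med12*, *FTM1* rose in *med12* alone, and the seed genes were near 0 in Col-0 and spread widely among the 3 dark *med12* libraries.

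The falls called in *med12* and not in Col-0 held a group of seed genes. Of the 6 seed storage markers, 5 fell in *med12*, with a median log2 fold change of -1.05 over the 6, and none was called in Col-0, where they were near 0. In the wider set of 19 tested genes annotated as storage albumin, cruciferin or oleosin, gathered after the values were seen, 6 fell, the median was -0.44 and 4 values were positive. Over all features, 0.986% fell in *med12*. *SESA1*, *SESA2*, *OLEO2*, *OLEO3* and *OLEO4* were not called, at -0.16, -0.32, -0.44, 0.18 and -0.55. *CRU3*, a cruciferin or storage globulin (AT4G28520, chromosome 4, 14087556 to 14089796), had 849, 613 and 388 counts in the 3 dark *med12* libraries and 49, 124 and 74 after light, or 126, 94.5 and 56.5 CPM and 8.15, 19.3 and 11.7 CPM. Its level in the 6 Col-0 libraries was at most 0.821 CPM. The dark and light *med12* libraries did not overlap, and the dark libraries themselves spread from 388 to 849 counts. The log2 fold change of *CRU3* was -2.80 (SE 0.18).

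*OLEO1*, an oleosin of seed oil bodies, had 268, 186 and 153 counts in dark *med12* and 89, 95 and 102 after light, a log2 fold change of -0.99 (SE 0.13), and the cruciferins *CRA1* and *CRU2* were at -1.03 and -1.94 and the 2S albumin *SESA3* at -1.06. The summed CPM of the 6 markers was 372, 273 and 189 in dark *med12*, 89.6, 117 and 100 after light, and at most 4.49 in any Col-0 library, with 2 of the 6 at 0 in all 3 libraries of each Col-0 group. Library 1 of dark *med12* was the highest and library 3 the lowest. Without library 1 the fall of each of the 5 genes stayed past the threshold, as it did in each of the 12 fits without 1 library.

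Of 27 features with differences between the dark *med12* libraries beyond counting noise, 18 were among those called after light, and most were seed storage and late embryogenesis abundant (LEA) genes. With the spread shared with the long-day libraries, only *CRU3* of the 5 seed storage genes was still called, and the adjusted p of the others was 0.13 to 0.57. In long days *CRU3* ranged from 3.08 to 122 CPM and *OLEO1* from 3.25 to 50.0 CPM among the 4 *med12* libraries. The part that seed-type transcripts varying between seedling pools play in these falls was not tested.

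Genes annotated as LEA or dehydrin, a name that covers proteins protecting drying seeds and also unrelated glycoproteins, gave 10 falls and no rise in *med12* among 71 tested, and 3 rises in Col-0. Their median was -0.05, with 33 positive and 38 negative values. Over all features, 0.986% fell in *med12* and 1.94% rose in Col-0. All 10 falls were among the 40 members not annotated as hydroxyproline-rich glycoproteins, whose median was -0.08. *LEA7* had 194, 116 and 53 counts in dark *med12* and 26, 34 and 32 after light, while Col-0 had 6 to 8 and 10 to 18 counts. The log2 fold changes were -1.88 (SE 0.26) and 0.94 (SE 0.62), and the difference of -2.81 lost its call in 5 of the 12 fits without 1 library, with an edgeR adjusted p of up to 0.16 without the Col-0 light library 2. AT3G17520, also of the LEA group, was the only gene called in opposite directions. It went from 15.7, 15.9 and 14.6 CPM to 10.8, 9.80 and 7.43 CPM in *med12* and from 1.87, 0.987 and 0.952 CPM to 3.60, 4.01 and 2.13 CPM in Col-0. AT2G20670, a DUF506 family gene, was no seed gene and fell in *med12* from 104, 105 and 100 CPM to 48.4, 53.5 and 52.5 CPM, with a log2 fold change of -1.0 against -0.51 in Col-0 (difference -0.49, edgeR adjusted p = 1.6e-08).

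The G-box CACGTG stood in a larger share of promoters of the falls called in *med12* alone than of all genes. It is the core bound by PIFs, HY5 and the bZIP factors of abscisic acid and seed programmes. It was found in windows of 300 bases (250 before to 50 after each gene start) in 29 of 128 genes that fell in *med12* and were not called in Col-0 (22.7%), in 10.1% of the genes that fell in both, in 6.63% of the *med12* rises and in 8.68% of 21000 tested genes. Both strands were searched, and the letters overlap none of the other motifs searched. These were the I-box (GATAAG), the evening element (AAAATATC), the CGCG-type core (CGCGTT), the CRT/DRE element (CCGAC) and the W-box (TTGACC or TTGACT). The W-box stood in 35.5% of the *med12* rises, 21.1% of the falls called in *med12* alone and 32.8% of all. In the same order the shares were 17.5%, 20.3% and 15.0% for the I-box and 9.64%, 20.3% and 15.9% for CRT/DRE. They were 10.8%, 6.25% and 7.1% for the evening element and 6.02%, 3.91% and 3.67% for CGCGTT. The I-box also stood in 27.8% of the genes that fell in both genotypes. Of the 5 called seed storage genes, *OLEO1* and *SESA3* held the G-box, and *CRU3*, *CRA1* and *CRU2* did not. The windows around the G-box (capitals) are shown for 4 of the falling seed genes that hold it and, for comparison, for *CBF2*, a light-induced gene in both genotypes, read on the strand of the gene from the RefSeq genome TAIR10.1.
*OLEO1*, chr4:12900324-12900351, plus strand: gacgccattaaCACGTGgcctacaattg
*LEA7*, chr1:19619495-19619522, plus strand: acgtgagtcacCACGTGtctaacatctt
*ECP63*, chr2:15358753-15358780, minus strand: catgaaaagtcCACGTGtcataccacgt
*SESA3*, chr4:13611718-13611745, plus strand: atgcattcttaCACGTGattgccatgca
*CBF2*, chr4:13016321-13016348, minus strand: tgtttcttatcCACGTGgcattcacaga
*ECP63*, an embryonic cell protein gene of the LEA type, went from 8.60, 3.55 and 2.48 CPM to 0.998, 0.622 and 0.474 CPM in *med12* (log2 fold change -2.78, SE 0.42) and was at 0.492 CPM or less in Col-0. A match is a description of the letters, and binding was not tested.

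Genes called in *med12* also stood apart in level, and the rises shared with Col-0 did so too. Of the 71 rises not called in Col-0, 35 were more than 2-fold lower in dark *med12* than in dark Col-0 (49.3%), against 4.12% of all tested features. Among the 95 shared rises, 31 were lower by this measure (32.6%). Of the 129 falls not called in Col-0, 63 were more than 2-fold higher in dark *med12* (48.8%), against 2.83% of all. Among the 79 shared falls, 2 were higher (2.53%) and 14 lower (17.7%). Since the dark *med12* libraries also define the calls, these shares are not independent of them. In the long-day libraries, which the calls did not use, 48 of the 129 falls (37.2%) were more than 2-fold higher in *med12* than in Col-0, against 4.59% of all features, whereas of the 71 rises 24 were higher (33.8%) and 13 lower (18.3%). In the same libraries 36 of the 95 shared rises were higher (37.9%) and 7 lower (7.37%). The 79 shared falls had 13 higher (16.5%) and 6 lower (7.59%).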

How the data were processed

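Single-end reads were trimmed (Trim Galore) and placed on the TAIR10 genome (STAR) by the authors, who then dropped duplicate reads (Picard) and counted reads on Araport11 genes and transposable elements with HTSeq 0.6.1. They deposited whole-number counts per feature without normalization. Libraries were stranded and counting used the reverse strand setting. Duplicate removal caps the counts of highly expressed genes and so understates their changes. Reads outside features, 3.45% to 5.03% of the counts, were left out. Here, R 4.3.3 and edgeR 4.0.16 were used with filterByExpr, TMM scaling and the quasi-likelihood test on 12 libraries (3 per group), and p-values were adjusted by Benjamini-Hochberg over 21202 features. Calls needed an adjusted p under 0.05 and more than 1.5-fold (interaction: adjusted p only). An SE is the log2 fold change divided by the root of F, and it can lie below counting error where replicates differ by less than counting noise. On simulated counts of 21152 genes, 191 of 200 changed genes were called with 3 false calls, and 185 with 9 false calls for the interaction. The simulated libraries varied by little more than counting noise. These numbers therefore do not give the error rate of data whose replicates vary less, as here, or more, as in long days.

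Single genes were named by a rule: *HY5*, *HYH*, *CGA1* and *MED12*, the 14 largest rises and 10 largest falls in *med12* without overlap between libraries and with a mean of at least 1 CPM, all called list members, the 10 largest interactions among genes called in *med12* only, and the 10 smallest p-values among genes called in both. Further genes named from the salicylic acid, seed storage, LEA and root hair groups, with *TINY2*, AT2G20670, *ECS1* and AT3G17520, were chosen after their values were seen. The members and lists were chosen with earlier results of these data known. Promoter windows were cut from the RefSeq genome TAIR10.1, whose annotation matched 37050 of 37338 genes. Alternatives were DESeq2 1.42.0, RLE size factors, no low-count filter, glmTreat, no fold threshold, the 6 libraries of 1 genotype, the replicate number as block, and each library left out. The likelihood ratio test and sharing the spread with 8 long-day libraries were added after seeing the data. Counting intervals are exact 95% binomial intervals and cover counting error only.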

Additional observations from a re-analysis of the deposited data

Results flagged for a closer look

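The following named genes stand here because their light response differed between *med12* and Col-0 by the interaction test in edgeR. Values are the log2 fold change in *med12* minus that in Col-0. Larger values in *med12* were found for *PR1* (5.89), *FAMT* (5.55), *PDF1.3* (4.89), AT1G24147 (4.71), AT3G28510 (4.60), *WAK3* (3.90), AT3G22235 (3.87), *PCC1* (3.45), *TAT3* (2.87), *FTM1* (2.77), *BIP3* (2.52), AT5G44440 (2.50), *LURP1* (2.21), *PNP-A* (2.01) and *SAG13* (1.70). Many of these had 0 to 3 counts over the dark *med12* libraries, where the fitted value depends on the prior count. Positive values also came from smaller falls in *med12*, for AT4G38825 (2.80), *SAUR22* (2.11), *SAUR23* (1.55), AT5G18030 (1.45), *PIL1* (1.39), AT4G34770 (0.78) and *IAA29* (0.61). Smaller rises gave negative values for *CGA1* (-1.21), *CBF2* (-0.91), *CRF5* (-0.72), *HY5* (-0.69), *CDF1* (-0.54) and *PRR9* (-0.52). For *LEA7* (-2.81) and AT3G59940 (-0.31) the value came from a fall in *med12* that was deeper than in Col-0 or went the other way. Leaving out 1 library ended the call of 14 of the 30 differences. The highest adjusted p in edgeR was 0.14 for AT1G24147 (without the *med12* dark library 1), 0.26 for *PCC1* (*med12* light library 3), 0.18 for *PDF1.3* (*med12* light library 3), 0.16 for *PNP-A* (*med12* dark library 3) and 0.16 for *LEA7* (Col-0 light library 2). It lay between 0.06 and 0.098 for the other 9, which were *WAK3*, AT3G22235, *SAG13*, *CDF1*, *PRR9*, AT4G34770, AT5G18030, *BIP3* and AT3G59940.

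In the long-day libraries, 1 of 4 lay far from the others for *PR1* in Col-0 (0.335 CPM) and in *med12* (0.338 CPM), for *OLEO1* in Col-0 (1.24 CPM) and for *CBF2* in *med12* (17.3 CPM). Chance puts about 1 in 20 groups here.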

How the results depend on the processing

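In *med12*, DESeq2 called 98 rises and 132 falls, glmTreat against 1.5-fold 58 and 65, and the fit without a fold threshold 506 and 925. Sharing the spread with the 8 long-day libraries, chosen after seeing the data, gave 92 and 122. In Col-0, glmTreat called 104 and 67, and the fit without a fold threshold 1323 and 1367. For the difference between genotypes, DESeq2 called 19 with a larger and 31 with a smaller value in *med12*, and the long-day spread 10 and 16. Under the long-day spread 62 of the 95 shared rises and 69 of the 79 shared falls were still called in *med12*, but 30 of the 71 rises and 49 of the 129 falls called in *med12* only. With 1 library left out, between 139 and 171 rises and 175 and 216 falls were called in *med12*, 380 to 438 and 180 to 210 in Col-0, and 51 to 96 and 89 to 128 for the difference. That first count fell to 60 without the Col-0 light library 1, 52 without the *med12* dark library 1, and 51 without the *med12* dark library 3 or the *med12* light library 3. List members called were 16 to 19 up and 18 to 22 down. No result reversed. Of 77 named folds in *med12*, 69 kept their side of the thresholds in all 12 fits without 1 library, and of 30 named differences 16 did. The exceptions were *JAZ5*, *CRF1*, AT2G35290, AT4G34770, AT5G18030, *SAUR68*, *SAUR28* and AT1G79130 for the fold. Of all 107 named values, DESeq2 ended the call of 24 and the long-day spread that of 37, and glmTreat ended 23 of the 77 folds, while RLE size factors, no filter, the block and the likelihood ratio test ended none. The cause of these changes was not tested, and genes under 3 counts per library were not resolved.

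Libraries with the same replicate number did not deviate together (correlations of -0.071 to 0.012 between dark and light). Replicates differed by no more than counting noise for nearly all genes, so paired samples could give such values too. The correlations therefore cannot tell whether the numbers pair the samples. With the replicate number as a block, 167 features rose and 208 fell in *med12*, 416 and 198 in Col-0, and 91 and 137 passed for the difference.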

Other observations

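Of 15 tested genes annotated as root hair specific, grouped after the values were seen, 3 fell in *med12*, against 0.986% of all features. None was called in Col-0. All 15 had negative log2 values in *med12*, with a median of -0.47 against -0.17 in Col-0. *RHS12* went from 12.7, 14.6 and 16.8 CPM to 8.65, 7.31 and 8.07 CPM in *med12* and from 4.97, 3.95 and 5.40 CPM to 4.49, 4.15 and 4.60 CPM in Col-0. The dark *med12* libraries were the highest of all 12. Its log2 fold change was -0.88 (SE 0.13) in *med12*, and the difference from Col-0 of -0.76 (SE 0.24, edgeR adjusted p = 0.17) did not pass. *RHS18* and *RHS14* fell by 0.91 and 0.80 on the log2 scale. Summed root markers were 503 to 519 CPM in dark and 507 to 529 CPM in light *med12* libraries. The sum does not show an unchanged root share, because 3 of the 5 markers had means above 500 counts, where duplicate removal compresses differences. Of the 5, 2 were lower and 1 was higher in *med12* at an edgeR adjusted p under 0.05, with a lowest log2 value of -0.49.

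Cell surface receptor families, grouped after the values were seen, gave these rises and no falls in *med12*: 3 of 28 tested cysteine-rich receptor-like kinases, 3 of 16 wall-associated kinases and 3 of 42 receptor-like proteins, against 5, 2 and 4 in Col-0, and the medians in *med12* were 0.06, 0.00 and 0.10. Over all features, 0.783% rose in *med12* and 1.94% in Col-0. Of features with a mean of 20 to 50 counts, 5.57% and 9.09% were called in either direction. *WAK1* is also counted in the salicylic acid set.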
